A study of Mus musculus with 21 samples.

Results

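Haemoglobin and red cell genes were followed in mouse kidney by RNA-seq. The 8 genes are the alpha globin genes Hba-a1 and Hba-a2, the beta globin genes Hbb-bs and Hbb-bt, and the genes Alas2, Bpgm, Fech and Slc25a37, out of 21657 genes that the count tables hold. They were picked on measured values of these same kidneys, as red cell genes lower with adenine and higher again when iodomethylcholine (IMC) was added, with no numeric limit. Differences between the groups are therefore a description for these 8 genes and carry no test. What the choice did not use is how the genes varied from kidney to kidney within a group, and that is tested.

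All mice were female apoE KO mice on the C57BL/6J background, which lack apolipoprotein E and develop raised blood cholesterol. Diets began at 4 weeks of age and ran for 14 weeks, and kidneys were taken at 18 weeks. The Con group (n = 5) ate chow, the Ade group (n = 6) ate chow with 0.2% adenine, which injures the kidney tubules, and the Ade + IMC group (n = 6) ate the adenine chow with 0.06% IMC, a blocker of microbial trimethylamine production. A set of 4 Con + IMC kidneys was not analysed here. The study asked whether IMC lessens adenine-induced kidney disease. Because every group lacks apoE, no value here describes a kidney with that gene, and the samples were whole kidney RNA, so fewer red cells and less RNA per red cell cannot be told apart.

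A red cell is filled with haemoglobin, a tetramer of alpha and beta globin chains, each holding a haem group. Haem is built by a chain of enzymes that begins and ends in the mitochondrion: Alas2 is the erythroid form of the first enzyme, Fech (ferrochelatase) inserts the iron at the last step, and Slc25a37 (mitoferrin 1) carries iron into the mitochondrion. Bpgm makes bisphosphoglycerate, which loosens the hold of haemoglobin on oxygen. Young red cells that have just left the bone marrow (reticulocytes) still carry globin mRNA, while most haem enzymes other than Alas2 are made in many cell types. The kidney is also the main adult source of erythropoietin, the hormone that drives red cell production.

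Total counts per kidney ran from 7716126 to 11680809 in Con, from 5444833 to 7673215 in Ade and from 5728589 to 8305968 in Ade + IMC. Levels are given as CPM, a gene's count over the library's total on the usual CPM scale, with totals scaled by the trimmed mean of M values (TMM), and log2 differences are between group means of log2 CPM. Apoe, the deleted gene, had 47 to 214 counts per kidney, with no kidney of normal genotype to set beside it. Havcr1, a marker of tubule injury, had 1 to 7 counts in Con, 549 to 2104 in Ade and 192 to 1580 in Ade + IMC. The kidney markers Umod (2020 to 6524 CPM) and Slc34a1 (574 to 5657 CPM) were abundant in all 17 kidneys. Rhag, a defining red cell membrane gene, had at most 3 counts in any kidney, at or under the limit of 3 counts that a count of 0 allows, while the globin genes together had 117 to 1810 counts.

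The stretches before the transcription starts are shown as a description of the genes. Promoters from RefSeq on GRCm38.p6 were matched for 6 of the 8 genes, without Fech and Slc25a37. Motifs were searched in the 250 bases before each RefSeq start. GENCODE places the starts farther upstream, so 3 to 168 bases of these windows lie inside the GENCODE genes, and only the part upstream of both starts is printed, for the alpha and the beta gene with the longer such part. The stretches follow 5′ to 3′ on the gene's own strand, and capitals mark GATAA, a core bound by GATA factors, and the CACCC box, bound by Kruppel-like factors such as Klf1, each on either strand. The printed stretches are chr11:32296242-32296488 (plus strand), chr7:103813997-103814173 (minus strand), chrX:150547167-150547374 (plus strand) and chr6:34476106-34476206 (plus strand).
Hba-a2: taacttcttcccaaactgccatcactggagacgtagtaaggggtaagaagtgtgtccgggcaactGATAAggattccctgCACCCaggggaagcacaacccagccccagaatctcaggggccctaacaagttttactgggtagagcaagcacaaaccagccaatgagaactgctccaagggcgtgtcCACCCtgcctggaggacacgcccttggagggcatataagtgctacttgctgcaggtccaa
Hbb-bt: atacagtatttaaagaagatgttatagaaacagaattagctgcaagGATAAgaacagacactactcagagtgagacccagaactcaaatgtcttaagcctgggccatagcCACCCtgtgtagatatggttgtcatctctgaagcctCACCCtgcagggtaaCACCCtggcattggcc
Alas2: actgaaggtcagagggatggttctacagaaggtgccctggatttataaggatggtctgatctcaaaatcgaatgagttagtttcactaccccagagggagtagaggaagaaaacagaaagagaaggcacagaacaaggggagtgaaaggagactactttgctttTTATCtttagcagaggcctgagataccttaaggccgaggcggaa
Bpgm: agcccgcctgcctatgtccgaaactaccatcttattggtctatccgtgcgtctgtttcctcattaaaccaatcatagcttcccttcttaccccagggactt
All 4 globin windows and the Alas2 window held at least 1 GATAA and at least 1 CACCC match, those of CACCC for Alas2 lying 26 to 40 bases before the RefSeq start and so not in the printed part, and none of these matches overlapped. The Bpgm window, the only other window matched, held neither. Among all 32851 promoter windows of the same length, 22.6% held GATAA, 52.0% held CACCC and 10.1% held both, which is the background for these counts. TATAA, present in 22.8% of windows, was found on the printed strand 23 to 30 bases before the start in each of the 4 globin windows, and CCAAT, in 33.8% of windows, was found in the globin windows and Bpgm but not in that of Alas2. Matches are letters in a window and were not tested as binding sites. Whether they bear on how the genes varied from kidney to kidney was not tested.

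The gene copies are close enough to limit how far each can be counted alone. The coding sequences of Hba-a1 (chr11:32283511-32284465) and Hba-a2 (chr11:32296489-32297298) differ at 1 of 426 bases, and 67.5% of the 50-base stretches of the Hba-a1 transcript also occur in Hba-a2. Hbb-bs (chr7:103826534-103828096) and Hbb-bt (chr7:103812524-103813996) differ at 1 of 441 coding bases and share 65.8% of the Hbb-bs stretches. Their windows before the start were 97.6% identical for the alpha pair and 70.5% for the beta pair. Reads were 50 bases long, so the split within each pair is uncertain, while no stretch was shared between alpha and beta genes. Alas2 (chrX:150547375-150570638) shares 13.8% of its stretches with Apex2 and Mir3620, whose exons overlap it, and strand was not stated for the counting. Bpgm (chr6:34476207-34505613) shares none.

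Hbb-bs, the most abundant of the globin transcripts here, stood at 119, 129, 153, 154 and 160 CPM in the 5 Con kidneys. In Ade it ran from 11.9 through a median of 22.4 to 64.7 CPM, and in Ade + IMC from 55.3 through 69.7 to 152 CPM. All 6 Ade kidneys lay below every Con kidney, and 3 of 6 Ade + IMC kidneys lay above every Ade kidney. The log2 difference was -2.51 ± 0.38 (SE) for Ade against Con, a 5.69-fold lower level, and 1.59 ± 0.43 for Ade + IMC against Ade, a 3.02-fold higher one. Against Con, Ade + IMC was lower by a log2 difference of -0.91 ± 0.25, with 5 of 6 kidneys below every Con kidney.

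Hbb-bt, the minor adult beta globin, stood at 17.8 to 25.7 CPM in Con (median 21.8). It ran from 0.638 to 10.5 CPM in Ade (median 3.59), where the lowest kidney had 5 counts, and from 6.35 to 23.0 CPM in Ade + IMC (median 11.4). Its log2 differences had the widest errors of the 4 globins, -2.62 ± 0.54 for Ade against Con and 1.73 ± 0.59 for Ade + IMC against Ade. As for Hbb-bs, Con and Ade did not overlap, and 3 of 6 Ade + IMC kidneys exceeded every Ade kidney.

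The alpha globins followed the same order. Hba-a1 stood at 22.1, 22.7, 30.3, 24.9 and 33.0 CPM in Con, at 1.28 to 15.2 CPM in Ade (median 5.15) and at 9.67 to 27.97 CPM in Ade + IMC (median 12.6). Hba-a2 stood at 12.6, 16.5, 19.2, 17.1 and 20.7 CPM in Con, at 1.15 to 10.2 CPM in Ade (median 3.21) and at 3.42 to 15.8 CPM in Ade + IMC (median 8.61). No Ade kidney reached a Con kidney for either gene, and 2 of 6 Ade + IMC kidneys exceeded every Ade kidney. The log2 differences for Ade against Con were -2.34 ± 0.49 and -2.25 ± 0.44, and those for Ade + IMC against Ade were 1.43 ± 0.53 and 1.23 ± 0.52.

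**Figure D1:**
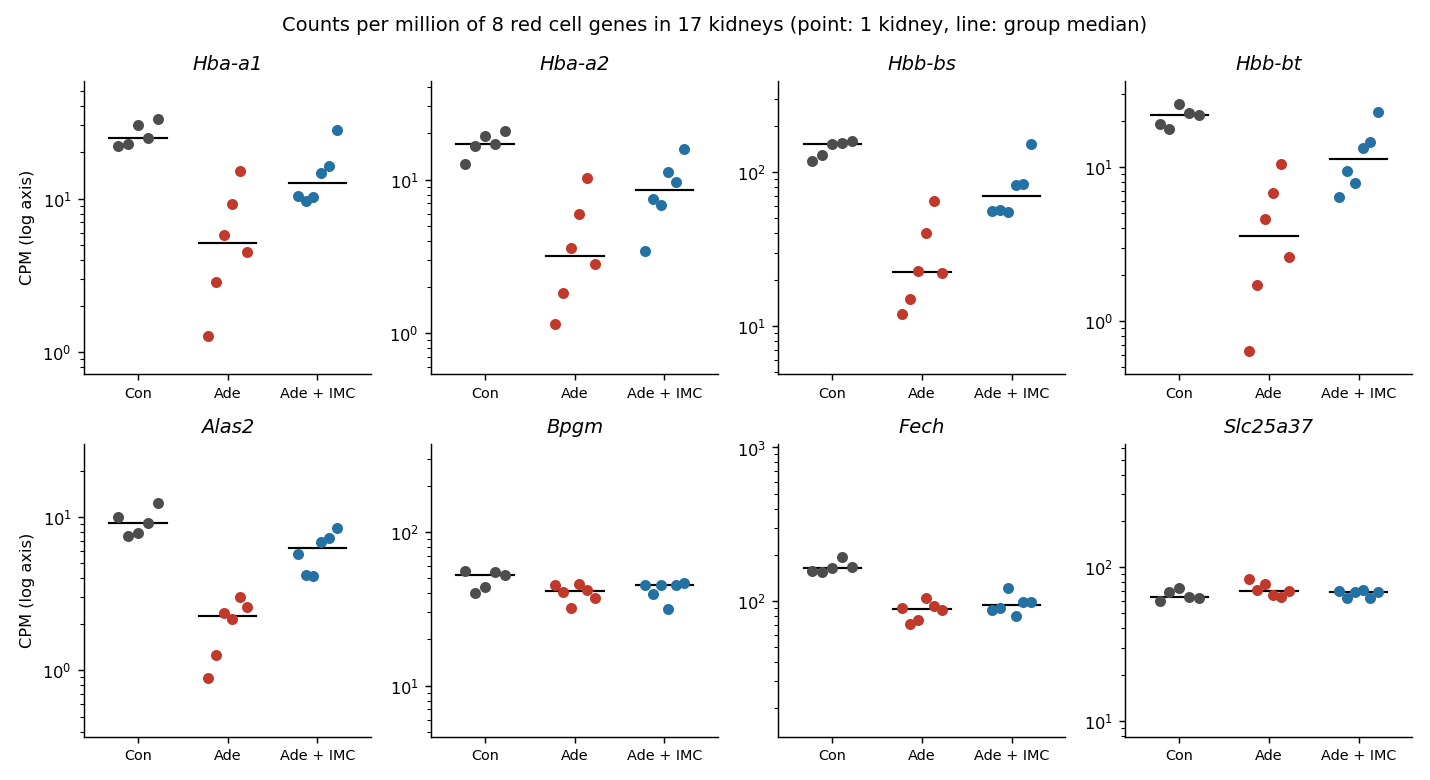
CPM on a log axis for each of the 8 genes in Con (n = 5), Ade (n = 6) and Ade + IMC (n = 6) kidneys, each point 1 kidney and each line the group median. In the globin and Alas2 panels the Ade points lie below all Con points, the Fech panel shows the same gap at a smaller size, and Bpgm and Slc25a37 stay within a narrow band.

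Many of all genes tested were called in the contrasts with Con. Across 14612 genes tested for Ade against Con by edgeR's quasi-likelihood test, 32.2% were called lower and 35.1% higher at an adjusted p below 0.1. Con and Ade did not overlap for the 4 globins, Alas2 and Fech. The share of all genes with no overlap was not counted. Since this contrast also chose the 8 genes, nothing is read from the lack of overlap. For Ade + IMC against Ade, 0 of 14696 genes (0%) were called by limma at an adjusted p below 0.1, and at an unadjusted p below 0.05 the shares were 3.35% lower and 3.37% higher. The same contrast gave 133 called genes with the leading digit of mouse numbers as a block and 37 by DESeq2. For Ade + IMC against Con, 32.3% of 14578 genes were called lower and 30.9% higher.

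Added up, the 4 globins made 173 to 236 CPM in Con (median 219), 14.9 to 101 CPM in Ade (median 34.4) and 75.9 to 219 CPM in Ade + IMC (median 103). The highest kidney held 15.8-fold the sum of the lowest. The Ade kidneys were spread from each other more than those of Con, from mouse 207 at 14.9 CPM to mouse 408 at 101 CPM. In Ade + IMC, mouse 412 reached 219 CPM, inside the Con range, while the other 5 kidneys lay between 75.9 and 124 CPM. Without mouse 412 the log2 difference of the globin mean between Ade + IMC and Ade, 1.49 ± 0.51 with all kidneys, was 1.30.

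The make-up of the globin counts is given as shares, which are bounded, so their spread is not compared with that of the amount. Hbb-bs took 67.1 to 70.5% of globin counts in Con, 61.9 to 79.5% in Ade and 67.2 to 73.4% in Ade + IMC, and the ends of the Ade range came from mouse 308 (215 globin counts) and mouse 207 (117 globin counts). The alpha genes together took 19.2 to 22.8% in Con, 16.2 to 25.6% in Ade and 18.2 to 21.3% in Ade + IMC. In mouse 207, which had 117 globin counts, the alpha share of 16.2% had an exact 95% binomial interval of 10.1 to 24.2%, which spans the Con range. The same kidney's Hbb-bt share of beta globin counts, 5.10% (5 counts), was the lowest of the 17 kidneys. Its exact interval of 1.68 to 11.5% lies below the Con values of 11.9 to 14.3%. It overlaps the exact intervals of single Con kidneys, which reach down to 10.2% (mouse 202). These intervals cover counting error only, since the reads carry no molecular identifiers. Hbb-bt took 11.9 to 14.3% of beta globin counts in Con, 5.10 to 16.9% in Ade and 10.2 to 14.8% in Ade + IMC. Per length, the Con median of Hbb-bs was 244 CPM per kilobase of its transcript, against 31.0 for Hbb-bt, 35.6 for Hba-a1 and 30.9 for Hba-a2, levels that rest on the uncertain split within each pair.

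**Figure D2:**
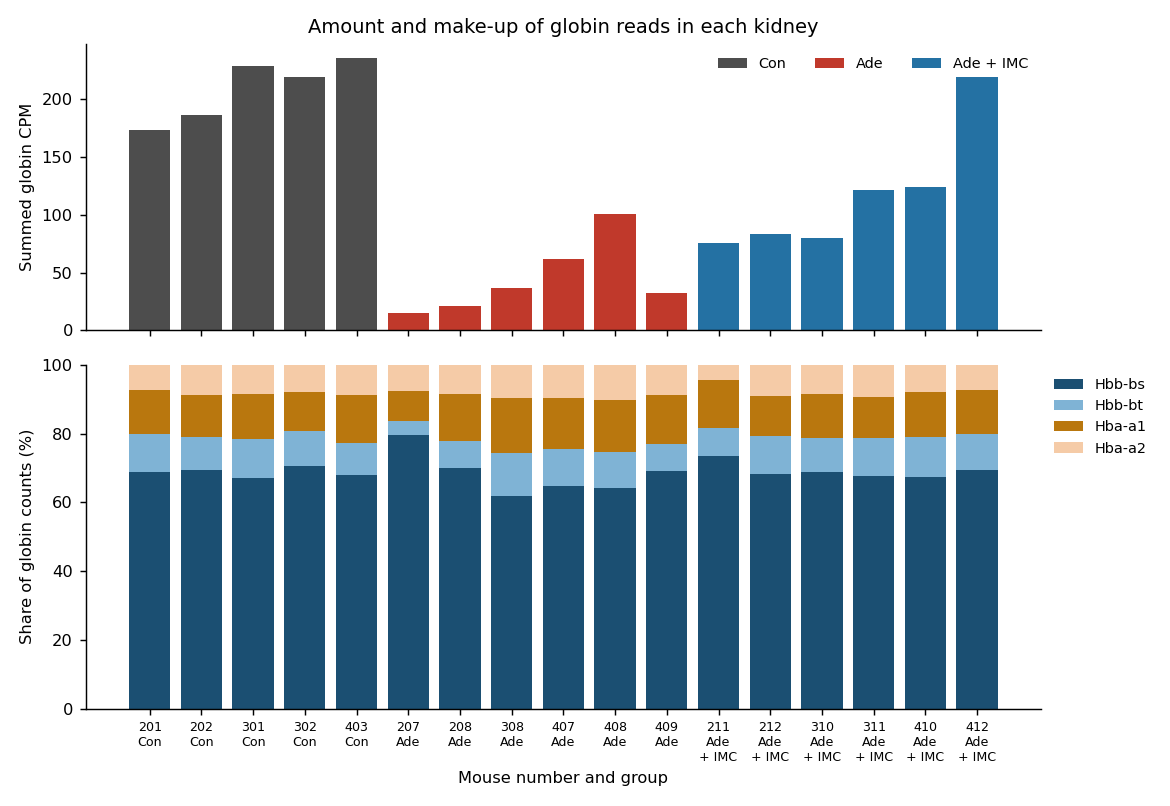
Summed CPM of the 4 globin genes (top) and the share of each gene in the globin counts in percent (bottom) for each of 17 kidneys, ordered by group and mouse number. The bars on top range from 14.9 to 236 CPM and the Hbb-bs share from 61.9 to 79.5%.

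Alas2, the erythroid first enzyme of haem synthesis, stood at 9.93, 7.48, 7.84, 9.15 and 12.4 CPM in Con. It stood at 0.893, 1.26, 2.38, 2.16, 2.999 and 2.59 CPM in the 6 Ade kidneys (7 to 24 counts) and at 5.70, 4.18, 4.14, 6.81, 7.27 and 8.49 CPM in the 6 Ade + IMC kidneys. All Ade kidneys lay below all Con kidneys and below all Ade + IMC kidneys. The share of all genes with no such overlap was not counted, so nothing is read from this. The log2 difference was -2.12 ± 0.27 for Ade against Con, 1.504 ± 0.29 for Ade + IMC against Ade and -0.62 ± 0.21 for Ade + IMC against Con. The last contrast overlapped in 1 kidney, again mouse 412. Alas2 took 3.32 to 5.43% of the counts of the 5 genes in Con, 2.89 to 7.43% in Ade and 3.74 to 6.99% in Ade + IMC.

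Fech did not follow the globins between the adenine groups. It stood at 155 to 194 CPM in Con (median 163), 71.1 to 104 CPM in Ade (median 88.5) and 79.4 to 121 CPM in Ade + IMC (median 94.3). Both adenine groups lay below every Con kidney, with log2 differences of -0.95 ± 0.10 and -0.81 ± 0.10. Ade + IMC and Ade overlapped, and their log2 difference was 0.14 ± 0.12, so the premise of a higher level with IMC was met only by a difference close to its standard error.

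Bpgm and Slc25a37 met the premise less. Bpgm stood at 40.0 to 55.4 CPM in Con, 32.3 to 45.6 CPM in Ade and 31.5 to 46.7 CPM in Ade + IMC. All 3 Bpgm ranges overlapped, and the log2 differences were -0.28 ± 0.12 for Ade against Con and 0.05 ± 0.12 for Ade + IMC against Ade, the latter turning to -0.01 without Ade mouse 308. Slc25a37 stood at 60.1 to 73.2 CPM in Con, 64.1 to 83.4 CPM in Ade and 62.9 to 71.6 CPM in Ade + IMC. Its log2 difference was 0.13 ± 0.08 for Ade against Con and -0.08 ± 0.07 for Ade + IMC against Ade, in the direction opposite to the one the genes were picked for.

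The test of co-variation used deviations of log2 CPM from each kidney's own group mean, over 17 kidneys, with kidneys permuted within groups (two-sided, 100000 permutations) and p-values adjusted over the 28 pairs. All 6 globin pairs were called, with Pearson r from 0.93 to 0.98, Spearman rho from 0.92 to 0.97 and permutation adjusted p-values of 7e-05 to 9.33e-05, the first resting on the smallest p the permutations can give. Hba-a1 and Hbb-bs, which lie on different chromosomes and share no 50-base stretch, had r = 0.97 (permutation adjusted p = 7e-05). All 4 pairs of Alas2 with a globin were called too, with r from 0.72 for Hba-a2 to 0.84 for Hba-a1 and permutation adjusted p-values of 0.00096 to 0.0266. Of these 4, only the pair with Hba-a1 stayed called when the leading digit of mouse numbers was also subtracted (permutation adjusted p = 0.0704), and the others had permutation adjusted p-values of 0.101 to 0.422. Kidneys were still permuted within groups but across digits there, so these p-values are approximate and may be too small. Without the 2 kidneys farthest from the median, r was 0.87 to 0.97 among globins and 0.51 to 0.74 for Alas2 with a globin.

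None of the 15 pairs that join Bpgm, Fech or Slc25a37 to a globin or Alas2 was called, with r from -0.51 to 0.31 and permutation adjusted p-values from 0.181 to 0.985. The Slc25a37 pairs were all negative, from -0.51 with Hbb-bt to -0.45 with Hba-a2, and did not pass. Without the 2 farthest kidneys they ran from -0.43 with Hbb-bs to -0.01 with Hba-a1. Within Ade alone Slc25a37 had r of -0.84 to -0.79 with the globins, also not called, which became -0.52 to -0.17 without the 2 farthest kidneys, and within Ade + IMC r was -0.08 to 0.14. Bpgm and Fech correlated with each other, r = 0.62 and rho = 0.59 (permutation adjusted p = 0.0389), which made 11 called pairs of 28. All 11 were positive. Without the 2 farthest kidneys r of Bpgm with Fech was 0.44.

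**Figure D3:**
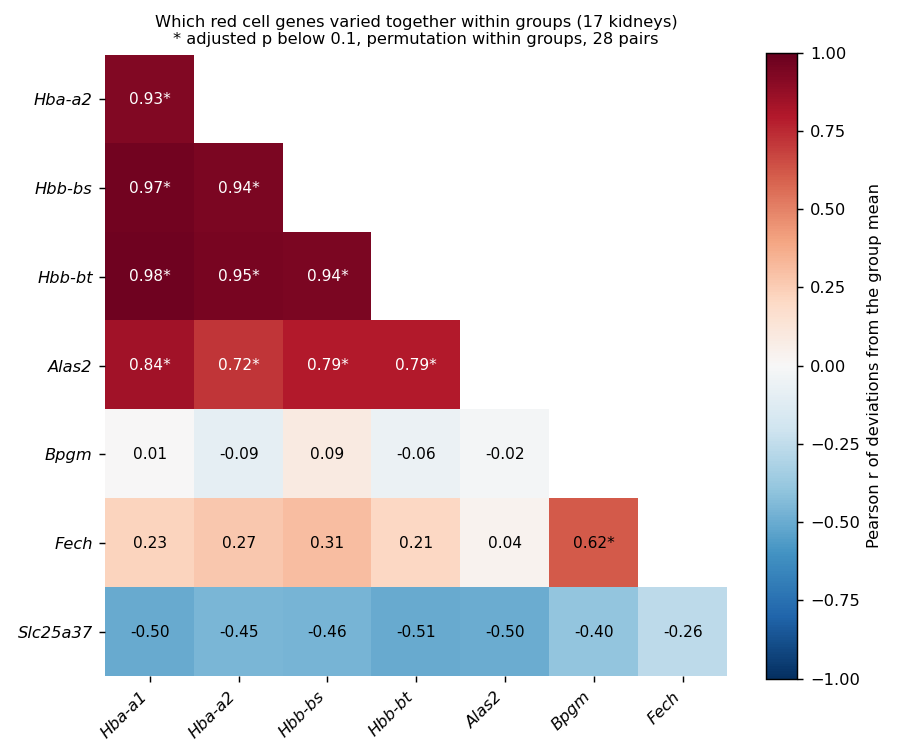
Pearson r of each pair of the 8 genes over 17 kidneys after subtracting group means, with an asterisk where the adjusted p over 28 pairs was below 0.1. The cells of globins and Alas2 hold r of 0.72 to 0.98, the Bpgm and Fech cell reads 0.62, and the Slc25a37 row is negative throughout.

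Within single groups the pairs were tested in the 2 groups of 6. Within Ade (n = 6), globin pairs had r of 0.95 to 0.99 and Alas2 had r of 0.82 to 0.89 with the globins, with 6 of 6 globin pairs and 3 of 4 Alas2 pairs called by exact permutation. Without the 2 farthest kidneys, which leaves 4, r of Alas2 with the globins within Ade was 0.57 to 0.62. Within Ade + IMC (n = 6), globin pairs had r of 0.80 to 0.99 and Alas2 had r of 0.58 to 0.90, with 4 of 6 globin pairs and 2 of 4 Alas2 pairs called by exact permutation. The globin pairs that missed were Hba-a2 with Hba-a1 (exact permutation adjusted p = 0.219) and with Hbb-bs (exact permutation adjusted p = 0.167). Fech had r of 0.36 to 0.55 with the globins within Ade and of -0.07 to 0.02 within Ade + IMC, none of which was called. Without the 2 farthest kidneys, r of Fech with the globins was 0.72 to 0.93 within Ade and -0.74 to 0.02 within Ade + IMC, over 4 kidneys each. Bpgm with Fech had r = 0.63 within Ade and 0.68 within Ade + IMC and was called in neither. Con, with 5 kidneys, was not tested, and as a description r of Alas2 with the globin mean was 0.25 there, beside 0.87 within Ade and 0.80 within Ade + IMC.

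**Figure D4:**
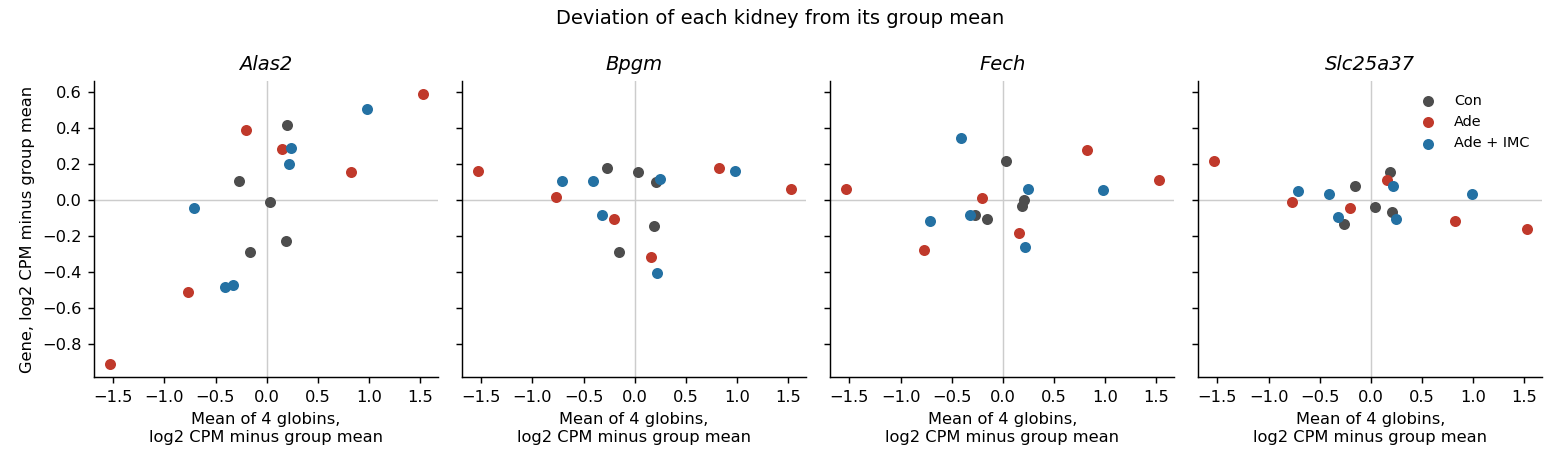
Each point is 1 kidney, coloured by group, with its deviation from the group mean in log2 CPM for the mean of the 4 globins (horizontal) and for Alas2, Bpgm, Fech or Slc25a37 (vertical). Alas2 rises with the globin mean along the panel, while the other 3 panels hold no called relation with any globin.

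Kidneys also differed by the first digit of the mouse number, whose meaning is not stated. In Ade the summed globin level was 14.9 and 21.4 CPM for digit 2, 36.5 CPM for digit 3 and 61.8, 101 and 32.2 CPM for digit 4. In Ade + IMC it was 75.9 and 83.4 CPM, 80.2 and 122 CPM, and 124 and 219 CPM for the same digits. Within digits, the log2 difference of the globin mean was -3.37, -2.39 and -1.92 for Ade against Con and 2.13, 1.24 and 1.39 for Ade + IMC against Ade, so each digit gave the same order of groups. With the digit subtracted as a block, all 6 globin pairs were still called (r from 0.84 to 0.96), while r of Alas2 with the globins was 0.33 to 0.62. Bpgm with Fech had r = 0.72 (permutation adjusted p = 0.00816) in that fit, and Alas2 with Fech was called in the negative direction, r = -0.59 (permutation adjusted p = 0.0768). Permutation in that fit ran within groups but across digits, so its p-values may be too small.

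Among 14610 genes, r with the mean of the 4 globins was then ranked, as a description over the 17 kidneys after subtracting group means. The globins took ranks 1 to 4, each set against the mean of the other globins only. Alas2 was at rank 41 with r = 0.80, and 41 genes (0.281%) reached 0.8. With the digit block Alas2 was at rank 380. The 10 highest other genes were Abca17, Plvap, Hpd, Hepacam2, Ido2, Car5a, Dapk2, Cwc15, Exoc3l2 and Ces1e, with r from 0.88 to 0.83. Plvap, which encodes a protein of fenestrated endothelium, stood at 201 to 299 CPM in Con, 85.8 to 239 CPM in Ade and 160 to 293 CPM in Ade + IMC. Hpd, an enzyme of tyrosine breakdown, stood at 66.6 to 139 CPM in Con, 0.919 to 9.497 CPM in Ade and 7.83 to 34.3 CPM in Ade + IMC. All kidneys share their library's depth and scaling across genes, and genes are not independent of each other.

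Other genes of the red cell were taken from 7 lists holding 74 names, of which 61 had a row in the table of Con and Ade and 51 passed its filter. Of these 51, 28 fell and 11 rose at an adjusted p below 0.1 by edgeR, shares of the list that stand beside 32.2% of all genes that fell and 35.1% that rose, and their median log2 fold change was -0.31 against 0.02 for all genes tested. All 8 names of the list of other globins and the globin chaperone, Ahsp among them, had no row, and neither did Gata1. Many of the listed genes are also used by cells other than red cells.

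Of the red cell membrane and skeleton genes, 4 of 7 tested fell and 2 rose, beside the same 32.2% and 35.1% of all genes, which are also the background for each list that follows. With 6 to 14 genes tested a list, such counts are a description of the named genes. Slc4a1, the anion exchanger of the red cell that is also made by acid-secreting cells of the collecting duct, fell from 85.5 to 135 CPM in Con to 22.3 to 58.5 CPM in Ade (log2 fold change -1.62 ± 0.25 SE, edgeR adjusted p = 8.59e-05). It stood at 43.3 to 73.9 CPM in Ade + IMC. Dmtn and Epb41, which tie spectrin to actin, fell by 1.03 and 0.94 on the log2 scale, and Sptb fell by 0.40. Ank1 and Gypc rose by 1.48 and 0.59.

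Of the erythroid regulators, 1 of 6 fell and 3 rose, beside 32.2% and 35.1% of all genes. Klf1, an activator of adult beta globin, fell from 21 to 34 counts in Con to 4 to 13 counts in Ade (log2 fold change -1.39 ± 0.27, edgeR adjusted p = 0.000639), and had 5 to 12 counts in Ade + IMC. Lmo2, Bcl11a and Zfpm1, which are also used by other blood cells, rose by 0.96, 1.47 and 0.60. The erythropoietin receptor Epor did not pass (log2 fold change -0.31 ± 0.39). The Klf1 median was 1.26 CPM in Ade + IMC and 1.48 CPM in Ade, a contrast left out of the main fit because its mean lay under the filter. With no filter on low values, 0 other red cell genes were called for that contrast, Klf1 included.

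Of the other haem synthesis enzymes, 5 of 7 fell and 0 rose. Cpox, Uros, Urod and Alad, for example, had log2 fold changes of -0.79, -0.75, -0.52 and -0.27. Alas1, the form of the first enzyme used outside red cells, stood at -0.25 ± 0.14 (edgeR adjusted p = 0.143) and Ppox at 0.11 ± 0.10, neither passing. Of the mitochondrial iron and haem transport genes, 9 of 14 fell, among them Abcb6 (-0.99), the transferrin receptor Tfrc (-0.68) and Slc25a39 (-0.62), and the haem exporter Flvcr1 rose (0.38). Of the genes around Bpgm in glycolysis, 5 of 7 fell, led by Pgk1 (-0.76) and Pgam1 (-0.69), and Pkm rose (0.25).

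Of the late erythroid and reticulocyte genes, 4 of 10 fell and 4 rose, which is near the 32.2% and 35.1% of all genes. Bnip3l, Xpo7 and Fbxo7, for example, fell by 0.66, 0.46 and 0.43. Isg20 and Ube2l6, both also interferon-induced, rose by 2.16 and 1.54, and Tent5c and Mkrn1 rose by 1.04 and 0.19.

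**Figure D5:**
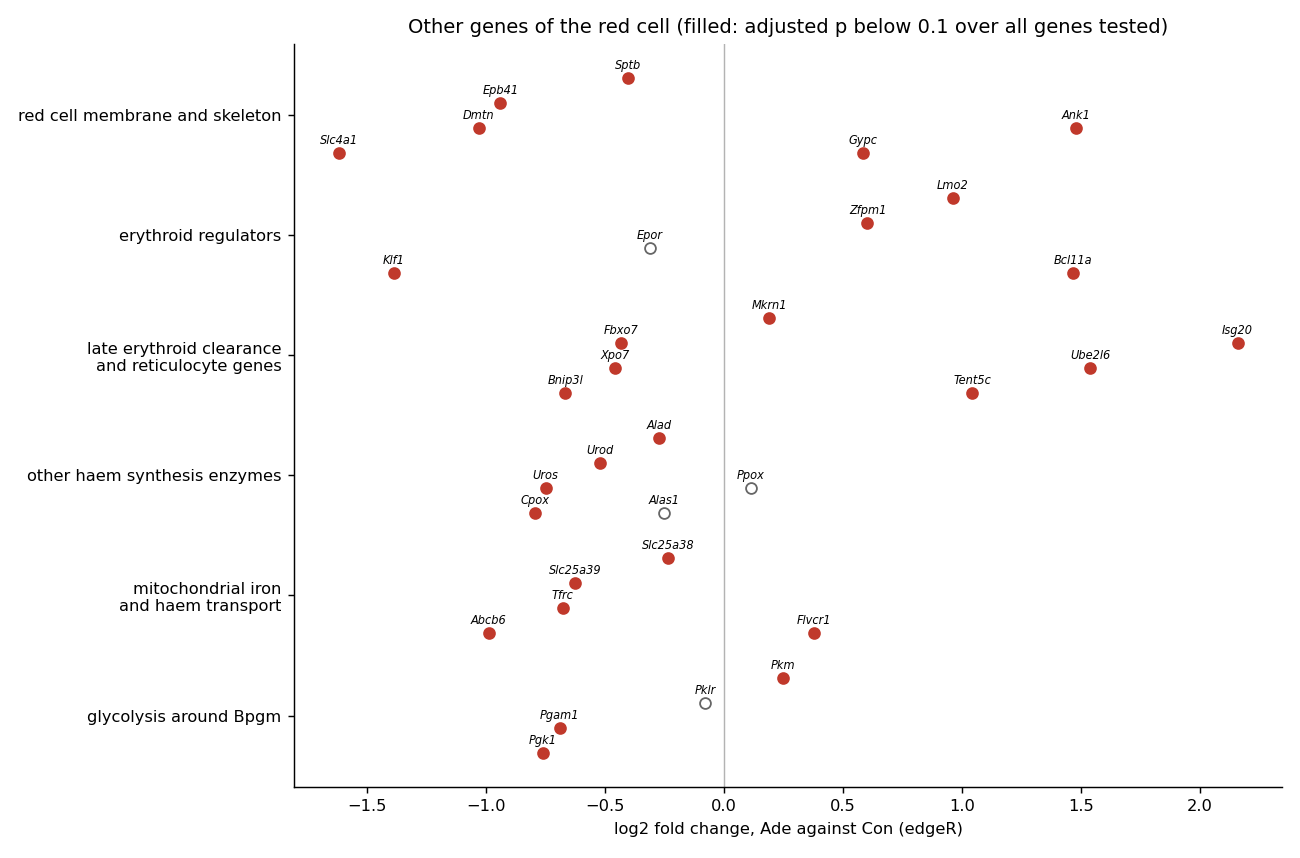
log2 fold change of Ade against Con by edgeR for genes of 6 lists that passed the filter and are reported by name, each point 1 gene, filled where the adjusted p was below 0.1. The haem synthesis and iron transport points lie mostly left of 0, while the regulator and reticulocyte lists spread to both sides, from -1.39 for Klf1 to 2.16 for Isg20.

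With IMC added, 0 of 50 other red cell genes tested passed against Ade by limma, beside 0% of all genes, and 4 higher and 1 lower reached an unadjusted p below 0.05. The DESeq2 and edgeR fits on whole reads also called 0 of these genes. The 4 higher were Slc4a1 (0.76 ± 0.25), Tfrc (0.43 ± 0.16), Pgk1 (0.37 ± 0.15) and Slc25a38 (0.17 ± 0.08), and the lower one was Pklr (-0.46 ± 0.17). With the first digit as a block, 2 of 50 passed, both higher, beside 0.497% of all genes called higher in that fit, Slc4a1 (0.88 ± 0.14, limma adjusted p = 0.0599) and Tfrc (0.52 ± 0.11, limma adjusted p = 0.0883). Against Con, Ade + IMC had 25 of 51 genes lower and 11 higher, beside 32.3% and 30.9% of all genes. This contrast shares the Con kidneys with the first and the Ade + IMC kidneys with the second.

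Of 7 genes that clear or break down haemoglobin and haem, 5 rose in Ade and 2 fell. Hp, which binds free haemoglobin, rose from 5 to 10 counts in Con to 62 to 244 counts in Ade (log2 fold change 4.31 ± 0.42, edgeR adjusted p = 1.8e-06), and Hmox1, which opens the haem ring, rose by 1.13. Blvra fell by 0.89. The Epo transcript had 0 or 1 count in Con and in Ade + IMC and 0 to 4 counts in Ade, too few to compare, and 5 of the 7 tested genes of the erythropoietin and oxygen sensing list fell in Ade, Vegfa (-0.87) among them, and 1 rose.

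Markers of other cells moved with some of these values. Deviations of the globin mean from the group means were set beside 9 measures, with p-values adjusted over the 9. The proximal tubule list, whose summed level was 25255 to 32791 CPM in Con, 2414 to 13698 CPM in Ade and 6264 to 18206 CPM in Ade + IMC and of which 12 of 13 genes were tested and 12 fell in Ade, had r = 0.78 and rho = 0.66 with the globin mean (permutation adjusted p = 0.0468). Its r was 0.71 without the 2 farthest kidneys and 0.54 with the digit block. Havcr1 had r = -0.62 and rho = -0.75 (permutation adjusted p = 0.0468).

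The endothelial list, 10 of 10 genes tested, summed to 887 to 1299 CPM in Con, 529 to 1081 CPM in Ade and 706 to 1328 CPM in Ade + IMC. In Ade, 6 of the 10 were called lower and 0 higher, beside 32.2% and 35.1% of all genes. The list had r = 0.63 with the globin mean (permutation adjusted p = 0.069). Its r was 0.29 without the 2 farthest kidneys and 0.63 with the digit block. The oxygen sensing list had r = 0.71 (permutation adjusted p = 0.083). The platelet list (r = -0.24), the neutrophil list (r = -0.33), the haem breakdown list (r = -0.16), the other nephron list (r = 0.23) and the total count (r = 0.01) did not pass. The part of tubule, endothelial or injury markers in the globin and Alas2 levels was not tested.

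Markers of other blood cells are given beside the globins. The platelet list summed to 12.9 to 20.3 CPM in Con, 14.6 to 24.6 CPM in Ade and 13.4 to 21.4 CPM in Ade + IMC, with 3 of 11 genes tested. The neutrophil list summed to 3.18 to 5.93 CPM in Con, 26.8 to 56.6 CPM in Ade and 19.96 to 65.1 CPM in Ade + IMC. Of its 13 genes, 5 passed the filter for Ade against Con. S100a9 had 1 to 4 counts in Con and 17 to 65 in Ade. A gene that low in Con passes the filter only through Ade, so rises in this list are not counted. Among the 3 tested platelet genes, Pf4 had 1 to 11 counts in Con and 21 to 63 in Ade. Its Con median of 1 count lay under the limit of 3 counts, so no fold is given. Gp1ba fell by 0.47 (edgeR adjusted p = 0.0853) and Itga2b stood at -0.29 (edgeR adjusted p = 0.142), with a list median of -0.29. How much blood each kidney held was not tested.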

How the data were processed

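Whole kidney RNA of 17 mice was used. Per the study's methods, the authors sequenced single-end 50 base reads and aligned them with STAR to mm10, whereas the submitters' processing notes name Trimmomatic 0.39, FastQC 0.11.8, Bowtie2 2.2.5, HTSeq 0.9.1 and DESeq2. Annotation release and strand are not given in the sources used here. The deposited tables hold raw counts per gene (Con and Ade, 21004 genes) and normalized counts, a signal that the authors made by dividing counts by DESeq2 size factors (Ade and Ade + IMC, 21287 genes). The authors' table of fold changes and p-values was read for gene names only.

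Whole reads were recovered from the normalized counts (100% whole within 0.001, and 0 values differing from the raw counts of the shared Ade kidneys). Values over all 17 kidneys used the 20634 genes in both tables, since a gene missing from 1 table is not at 0. Total counts ran from 5444833 to 11680809, so 3 counts equal 0.257 to 0.551 CPM without scaling.

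Con against Ade and Con against Ade + IMC were fitted with edgeR 4.0.16 (TMM, quasi-likelihood), Ade + IMC against Ade with limma 3.58.1 on log2(normalized count + 1) for genes with a mean of at least 10, all with Benjamini-Hochberg adjustment over all genes tested and a threshold of 0.1. Fold changes on that scale understate low genes. Member log2 CPM used a prior count of 2. Alternatives were DESeq2 1.42.0, other scalings, filters, pseudocounts, a block on the leading digit of mouse numbers, and leaving out each kidney. Scripts were tested on simulated data.

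Named genes were the 8 members, the 10 genes most like the globin mean, genes of the red cell lists and the most abundant markers. The members and lists were chosen with earlier results of these data known. Replicates are separate mice. Gene models were GENCODE on GRCm38, promoters RefSeq on GRCm38.p6. Some genes of the lists are counted but not reported by name here.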

Additional observations from a re-analysis of the deposited data

Results flagged for a closer look

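In groups of 4 to 10 kidneys, a value was picked out when its gap to the next kidney was large for the range of the group. Of 39 groups of values, 4 held such a value, where chance alone gives about 1 in 20, or 1.9 of 39. Mouse 412 of the Ade + IMC group stood highest for 3 linked measures: Hba-a1 at 27.97 CPM (other kidneys 9.67 to 16.4 CPM), Hbb-bs at 152 CPM (55.3 to 83.4 CPM) and the summed globins at 219 CPM (75.9 to 124 CPM). The total count of mouse 308 in the Ade group, 5.44483e+06 (5444833), lay below the other 5 totals of 7166746 to 7673215.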

How the results depend on the processing

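With the kidneys left out in turn, and with DESeq2, another scaling, no filter and the digit block, the number of genes called for Ade against Con ran from 9145 to 11298 and for Ade + IMC against Con from 8486 to 10315, each within 1.5 times the reported count. Other red cell genes called ran from 35 to 44 and from 32 to 38. For Ade + IMC against Ade, 0 genes were called under 17 alternatives, edgeR on recovered reads among them (984 at an unadjusted p below 0.05, and 988 by limma), whereas DESeq2 called 37 genes (16 lower, 21 higher) and the fit with a block on the leading digit of mouse numbers called 133 (60 lower, 73 higher), of which 2 were other red cell genes. The cause was not tested. Called member pairs numbered 9 with the digit block and 10 to 13 when a kidney was left out. The globin mean kept its direction in all alternatives, with log2 differences of -2.73 to -2.12 for Ade against Con and 1.19 to 1.80 for Ade + IMC against Ade. For Bpgm the difference between Ade + IMC and Ade ran from -0.01 to 0.13. Globin counts of 117 to 806 in Ade limit the shares of single genes there.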
